A study of Mus musculus with 17 samples.

Results

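The genes described here are 7 receptors through which blood-forming cells read cytokines: Csf1r, Csf2ra, Csf2rb, Csf3r, Il6ra, Il3ra and Epor. They were followed through all probe sets annotated to a single one of these symbols, which gave 12 of the 45101 probe sets on the array: 3 for Csf1r, 2 each for Csf2ra, Csf2rb and Il6ra, and 1 each for Csf3r, Il3ra and Epor. None of the 12 lay at the lowest deposited intensity, 16, on every array, so all 12 were tested, among 40023 probe sets in all. A further probe set, 1450200_s_at, is annotated to Csf2rb and its neighbour Csf2rb2 together; it is no member and is described apart.

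RNA came from hematopoietic stem cells (HSCs) sorted from mice and was hybridised to 17 Affymetrix arrays in 5 groups. Fetal liver HSCs were taken at E15.5 (n = 3), with no genotype given. Adult HSCs were taken at day 7 or day 21 after injection of pIpC, a synthetic double-stranded RNA that induces interferon, from controls labelled wild type (n = 3 and n = 4) and from mice titled C/EBPa KO (n = 3 and n = 4). Controls received pIpC too, and no fetal sample is labelled with it. The genotype field of the KO samples names a PU.1 knock-in (PU.1ki/ki) instead of a C/EBPa deletion. No label states the driver of the deletion, the age of the adults or whether a sample pooled several animals. Nothing says that replicates are separate animals, and p-values cover no more than the spread among these arrays. The series title asks how C/EBPa acts on adult HSC quiescence, and the comparisons below ask which receptor transcripts differed without it and between fetal and adult HSCs.

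The labels were checked on a few genes. Cebpa (1418982_at), the gene for C/EBPa, stood between 20.7 and 39.8 on the 7 KO arrays and between 115 and 532 on the 7 control arrays, a mean log2 difference over both days of −2.78 (SE 0.36, limma adjusted p = 0.0418). That call was lost without any 1 of control day 7 replicate 2 or 3, KO day 7 replicate 3, control day 21 replicate 1 or the 4 KO day 21 arrays (adjusted p = 0.0509 to 0.0917), while the value stayed between −2.58 and −2.87 in these. It was also lost with the replicate number as a block (0.0603) and with the 3′ to 5′ control ratio (0.088) or each array's fraction of values at the floor (0.206) as a covariate. All 7 KO arrays lay below all 7 controls. The difference of Spi1, which encodes PU.1, was 0.15 (SE 0.31, adjusted p = 0.905). The HSC genes Hlf and Kit were above 833 and 441 on every array. Of 10 listed HSC markers 8 were measured, and 0 of 8 had higher values in KO than in control at day 21 (median −0.43, 0 called by limma). Those with the smallest p there were Fgd5 at −2.30 (SE 0.52, unadjusted p = 0.000625, adjusted p = 0.172) and Hlf at −0.66 (SE 0.29, adjusted p = 0.511). Over both days the difference of Hlf was −0.82 (SE 0.22, adjusted p = 0.215). In fetal liver 3 of 8 had higher values (median −0.30), and Meis1 was called lower, at −1.19 (SE 0.27, adjusted p = 0.0275). The call of Meis1 was lost without any 1 fetal array or without control day 7 replicate 1 or 3 (adjusted p = 0.0501 to 0.0921), and in 4 of 13 other settings (0.0514 to 0.102). Slamf1, which encodes the CD150 of the sort gate, ranged from 37.8 to 582 in fetal liver. Cd48, which the gate excludes, ranged from 16 to 18.8 in control at day 7, from 18.6 to 658 in control at day 21, from 60.9 to 308 over the KO arrays and from 99.5 to 210 in fetal liver. Median intensity per array ran from 39.4 to 53.1, and 20.4% to 25.2% of probe sets lay at the floor. Control replicate 3 of day 21 had the most probe sets at the floor and the lowest mean correlation with its group, 0.81.

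Cytokine receptors of this class have no enzyme of their own, apart from Csf1r, which is a receptor tyrosine kinase. Csf3r and Epor pair with themselves and Il6ra signals through the shared subunit gp130. Csf2ra and Il3ra bind GM-CSF and IL-3 and can signal with the common beta chain, Csf2rb, through JAK2 and STAT5. In mouse a close copy of the beta chain, Csf2rb2, serves IL-3 alone. In myeloid progenitors C/EBPa is a known activator of Csf3r and PU.1 of Csf1r, whereas Epor is a target of the erythroid factor GATA1.

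Promoters of 5 of the 7 genes were taken from the RefSeq table of build GRCm38.p6, from 250 bases before to 50 after the start. The search did not cover every chromosome, so a gene without a promoter here need not be absent from that table. Those of Csf3r, Csf2ra and Epor are shown because these genes are the receptors of the neutrophil, the granulocyte-macrophage and the red cell line. Capitals mark matches on either strand to 3 short cores, TTNNGNAA for C/EBP, GAGGAA for PU.1 and GATAA for GATA factors. Csf3r lies at chr4:126024409-126024708 on the plus strand, Csf2ra at chr19:61228369-61228668 and Epor at chr9:21963527-21963826 on the minus strand, each printed 5′ to 3′ along the gene.
Csf3r: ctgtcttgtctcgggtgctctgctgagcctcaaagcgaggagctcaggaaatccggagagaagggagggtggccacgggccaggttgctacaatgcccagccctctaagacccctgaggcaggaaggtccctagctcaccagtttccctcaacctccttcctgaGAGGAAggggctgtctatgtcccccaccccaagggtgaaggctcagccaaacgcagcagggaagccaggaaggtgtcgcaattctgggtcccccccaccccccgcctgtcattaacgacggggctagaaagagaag
Csf2ra: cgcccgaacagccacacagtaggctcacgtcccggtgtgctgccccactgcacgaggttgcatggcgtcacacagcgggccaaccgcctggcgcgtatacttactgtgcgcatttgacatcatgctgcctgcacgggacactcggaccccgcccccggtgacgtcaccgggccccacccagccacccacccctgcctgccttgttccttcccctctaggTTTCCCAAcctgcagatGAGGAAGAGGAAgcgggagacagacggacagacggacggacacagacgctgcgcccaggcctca
Epor: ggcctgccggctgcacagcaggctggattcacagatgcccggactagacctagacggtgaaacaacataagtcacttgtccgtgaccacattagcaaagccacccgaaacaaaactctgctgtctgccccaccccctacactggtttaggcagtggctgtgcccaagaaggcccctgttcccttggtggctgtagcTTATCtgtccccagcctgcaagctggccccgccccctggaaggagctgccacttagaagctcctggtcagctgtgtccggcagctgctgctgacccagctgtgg
The Csf3r window held a single match, a PU.1 core from −86 to −81. Csf2ra held a C/EBP core from −31 to −24, on the opposite strand, and adjoining PU.1 cores from −14 to −9 and from −8 to −3. Epor held a GATA core from −54 to −50, on the opposite strand, and none of the other cores. No match shown overlaps another. Of the windows not shown, Il6ra held 2 C/EBP cores, 1 of them overlapping a PU.1 core, and a GATA core, and Il3ra held 1 C/EBP core. Such short words are common: of 32851 promoter windows of 300 bases, 40.7% held the C/EBP core, 28.3% the PU.1 core and 25.4% the GATA core. A match is a string of letters, not a bound site.

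Csf3r, the G-CSF receptor of neutrophils and their progenitors, was lower in fetal liver HSCs than in adult control HSCs, and was the 1 of 12 receptor probe sets that passed the test. Its intensity (1418806_at) was 202, 259 and 243 on the fetal arrays. It was 635, 491 and 698 in control at day 7 and 321, 381, 565 and 306 in control at day 21. All 3 fetal arrays lay below all 7 control arrays. The log2 difference from the mean of both control groups was −1.04 (SE 0.25, limma adjusted p = 0.0408 over all 40023 probe sets), which is 0.487 of the control level (95% confidence interval 0.335 to 0.706). In this comparison 3.07% of all probe sets were called (1.61% as lower) and 5.58% did not overlap; 15.7% had an unadjusted p under 0.05, as had 2 of the 12 members. A single call among 12 is too few to set the receptors apart from this background. A two-sided exact permutation test over the 10 arrays gave p = 0.0167, where 0.00833 is the smallest p this design allows.

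The size of this fall was steady and its call was not. Leaving out 1 array at a time gave −0.94 to −1.11, and the call was lost without fetal replicate 1, 2 or 3 (adjusted p = 0.136, 0.0882 and 0.0978), control day 7 replicate 1 or 3 (0.0717 and 0.0761) or control day 21 replicate 2 (0.0595). Over 13 other settings the value ran from −0.97 to −1.05, and the call was lost in 6 of them. Stage, tissue and pIpC cannot be told apart here, and in sorted bulk RNA fewer cells with a transcript and less of it per cell cannot be told apart either. Of 12 listed granulocyte markers 11 were measured, and 10 had higher values in fetal liver than in controls (median 1.96). Their summed intensity was 5097 to 40750 in fetal liver and 2365 to 4582 in control at day 7. In control at day 21 it was 1343 to 5768, which overlapped fetal liver. Of the 11, 3 were called higher in fetal liver, all genes of neutrophil granules: Ngp by 4.32 (SE 0.84, adjusted p = 0.0126), Camp by 3.71 (SE 0.76, adjusted p = 0.0171) and Lcn2 by 3.61 (SE 0.79, adjusted p = 0.0249). For Camp all fetal arrays lay above all controls, while for Ngp and Lcn2 fetal and control arrays overlapped. All 3 calls were lost without fetal replicate 1 (adjusted p = 0.0568, 0.0774 and 0.106) and without fetal replicate 2 (0.0632, 0.0566 and 0.121). They were also lost with only the arrays compared (0.111, 0.131 and 0.16). The part of the granulocyte markers in the Csf3r result was not tested.

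In the KO, Csf3r had lower means than control at both days without passing the test. KO arrays stood at 610, 418 and 284 at day 7 and at 325, 318, 209 and 334 at day 21. At both days the KO range overlapped that of control given above. The differences were −0.53 (SE 0.30, adjusted p = 0.824) and −0.39 (SE 0.26, adjusted p = 0.695). Averaged over both days the difference was −0.46 (SE 0.20, unadjusted p = 0.0345, adjusted p = 0.42), with a 95% confidence interval from −0.88 to −0.04. The two-sided exact permutation test within days gave p = 0.0471, where 0.00143 is the smallest possible. Granulocyte markers summed to 1276 to 3077 in KO at day 7 and 1052 to 1664 at day 21. Control sums were 2365 to 4582 and 1343 to 5768. Of the 11 measured, 1 had higher values in KO at day 7 (median −0.41) and 0 at day 21 (median −0.86), with 0 called. The part of these markers in the Csf3r values was not tested. By group means the order from low to high was fetal liver, KO day 21, control day 21, KO day 7 and control day 7, and every pair of neighbours overlapped. Between the control groups the day 21 minus day 7 difference was −0.66 (SE 0.28, unadjusted p = 0.0325, adjusted p = 0.625).

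**Figure D1:**
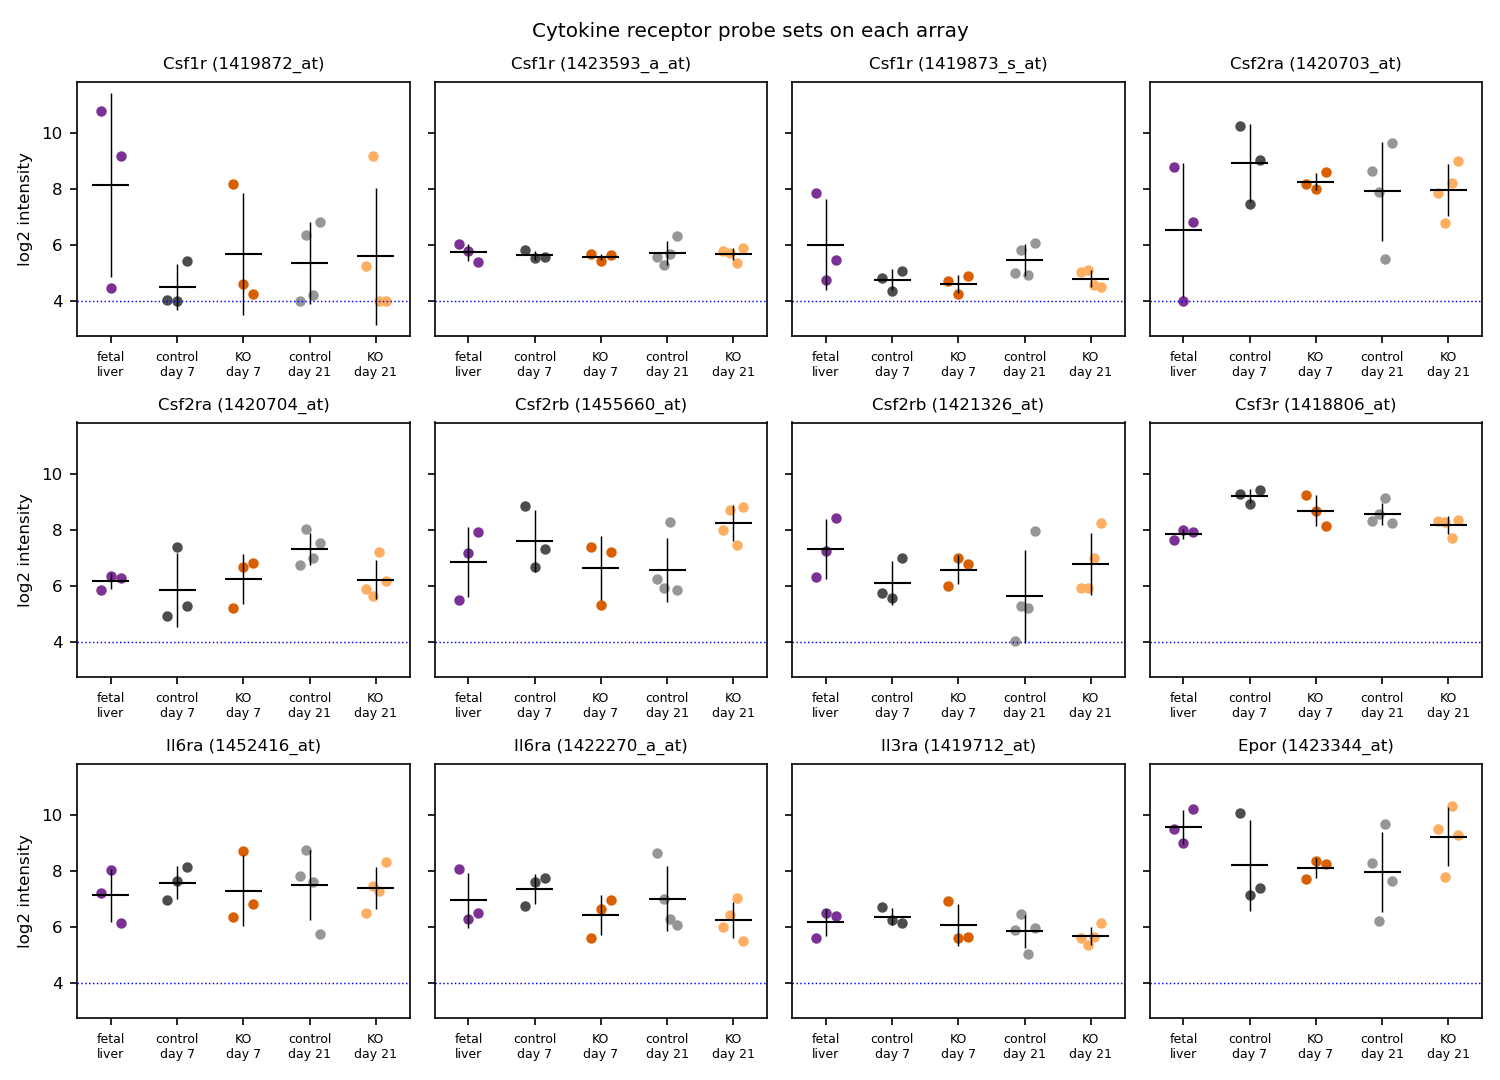
Log2 intensity of the 12 receptor probe sets on each of the 17 arrays (points), with the group mean (bar) and SD (vertical line); the dotted line is the floor at 4. Csf3r is the panel where the 3 fetal points, from 202 to 259 in intensity, lie below all 7 control points, from 306 to 698; within the other panels fetal and control points overlap.

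Csf1r, the M-CSF receptor of monocytes and macrophages, had 3 probe sets that differed in spread, and only the first, 1419872_at, had arrays at the floor. It read 1779, 22.1 and 582 in fetal liver, 16.7, 16 and 43.7 in control at day 7, and 16, 82.3, 18.6 and 115 in control at day 21. KO arrays read 295, 24.7 and 19.2 at day 7 and 38.5, 579, 16 and 16 at day 21. Thus 2 of 3 fetal arrays and 1 KO array of each day stood above every control array, and 4 arrays lay at the floor. The fetal difference of 3.22 (SE 1.43, unadjusted p = 0.0414, adjusted p = 0.29) did not pass, and the groups overlapped. The other probe sets did not share its size. On 1419873_s_at fetal replicate 1 was again the highest array, at 233, and the other 16 ran from 19.4 to 68.2. On 1423593_a_at all 17 arrays lay between 39.6 and 81.4, and the fetal difference was 0.06 (SE 0.20). Over the 17 arrays the first pair correlated at r = 0.71, and 1423593_a_at correlated with them at 0.21 and 0.44.

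Of 12 listed macrophage markers 11 were measured, 9 of them had higher values in fetal liver than in controls, and 3 were called: Marco, Mrc1 and C1qb, by 2.32, 4.94 and 5.999 (SE 0.185, 0.44 and 0.64). These 3 calls held in each setting and with each array left out. In this comparison 3.07% of all probe sets were called. The summed intensity of the list was 6091, 3870 and 4072 on fetal replicates 1, 2 and 3, against 1432 to 2172 over the 7 controls. C1qb, a complement gene of tissue macrophages, ranged from 936 to 1382 in fetal liver and from 16 to 31.0 in controls. Adgre1, which encodes the macrophage antigen F4/80, was at the floor on all 7 control arrays and reached 86.4 in fetal liver, while Cd163 was at the floor on all 3 fetal arrays. Their part in the Csf1r values was not tested. On the KO arrays the same sum was 1330 to 2045. It was 1754 and 1421 on the KO arrays where 1419872_at read 295 and 579, and C1qb was at the floor on both. C1qb reached 217 on KO day 21 replicate 3, where 1419872_at was at the floor.

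Hepatocyte markers, which the sort should leave out, and endothelial markers also had higher means in the fetal group, unevenly over its arrays. Tek, on the endothelial list, is also a listed HSC marker. Of 8 hepatocyte genes all 8 had higher values and 3 were called (median difference 2.19). Of 10 endothelial genes all 10 had higher values and 4 were called (median 2.20). Of all probe sets 3.07% were called there. On fetal replicates 1, 2 and 3 the hepatocyte sum was 881, 11516 and 7699, against 438 to 1369 over the controls. Replicate 1 thus lay within the control range. The endothelial sum was 2345, 9420 and 13583 on these arrays, against 820 to 1374 over the controls. In fetal liver 4 of 9 megakaryocyte genes (median −0.46) and 4 of 11 lymphoid genes (median −0.07) had higher values, with 0 called by limma. Of 9 megakaryocyte genes 8 had higher values in the KO over both days, with a median of 1.11 and 0 called by limma. Of 11 lymphoid genes 8 did, with a median of 0.14 and 0 called. Their part in the receptor values was not tested.

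**Figure D2:**
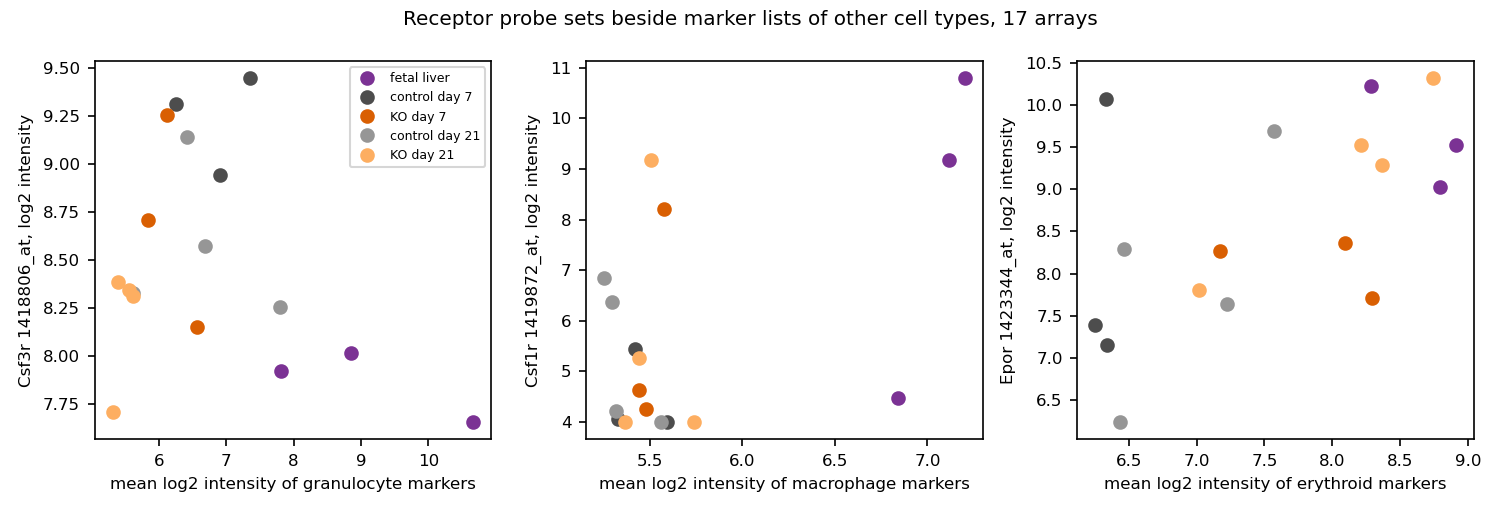
Log2 intensity of Csf3r, Csf1r and Epor probe sets on the 17 arrays (y) against the mean log2 intensity of granulocyte, macrophage and erythroid marker lists (x), coloured by group. The 3 fetal arrays stand apart on the macrophage axis, at 6.84 to 7.2 against 5.25 to 5.59 for controls, and have the lowest Csf3r among fetal and control arrays at granulocyte means of 7.81 to 10.67.

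The beta chain gene Csf2rb had higher means in KO than in control at day 21 on both of its probe sets, without a call. On 1455660_at KO arrays read 259, 424, 177 and 461 and control arrays 76.2, 62.1, 314 and 57.9. Of the 4 controls 3 lay below every KO array and replicate 3 lay among them. The difference was 1.68 (SE 0.71, unadjusted p = 0.0344, adjusted p = 0.493). At day 7 the sign was opposite, −0.96 (SE 0.82), with KO at 169, 40.7 and 150 and control at 464, 103 and 160. The day 21 minus day 7 difference of KO effects was 2.64 (SE 1.09, unadjusted p = 0.0299, adjusted p = 1). On 1421326_at KO read 60.8, 61.9, 130 and 309 and control 16.5, 39.0, 37.7 and 252 at day 21, a difference of 1.16 (SE 0.78, adjusted p = 0.702). At day 7 it read 64.2, 128 and 111 in KO and 53.8, 47.3 and 130 in control, a difference of 0.49 (SE 0.90). The pair of probe sets correlated at r = 0.11 over the 17 arrays. In fetal liver they read 45.5, 147 and 248, and 79.6, 152 and 350, with differences from control of −0.22 (SE 0.70) and 1.46 (SE 0.76, adjusted p = 0.378).

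The probe set that cannot separate Csf2rb from Csf2rb2 was called in fetal liver and not in the KO. At day 21 it read 603, 498, 602 and 1410 in KO and 229, 257, 281 and 177 in control, with no overlap, a difference of 1.61 (SE 0.42, unadjusted p = 0.00197, adjusted p = 0.251). At day 7 KO read 406, 177 and 302 and control 143, 368 and 265, a difference of 0.21 (SE 0.48). In fetal liver it read 1306, 464 and 1130, above all 7 controls, and was called higher by a log2 difference of 1.90 (SE 0.41, adjusted p = 0.024). Without fetal replicate 1 or 3 that call was lost (adjusted p = 0.102 and 0.0992), as it was with only the arrays compared (0.0679) and with array weights (0.0602). The probe set of Csf2rb2 alone, 1449360_at, read 151, 285, 162 and 377 in KO and 26.8, 175, 23.9 and 30.3 in control at day 21, a difference of 2.40 (SE 0.82, unadjusted p = 0.0119, adjusted p = 0.364). In fetal liver Csf2rb2 differed by 0.20 (SE 0.81). RNA of these near copies can hybridise to either gene's probes, so each value is uncertain as to gene, and the shared probe set was taken up after its values were seen.

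**Figure D3:**
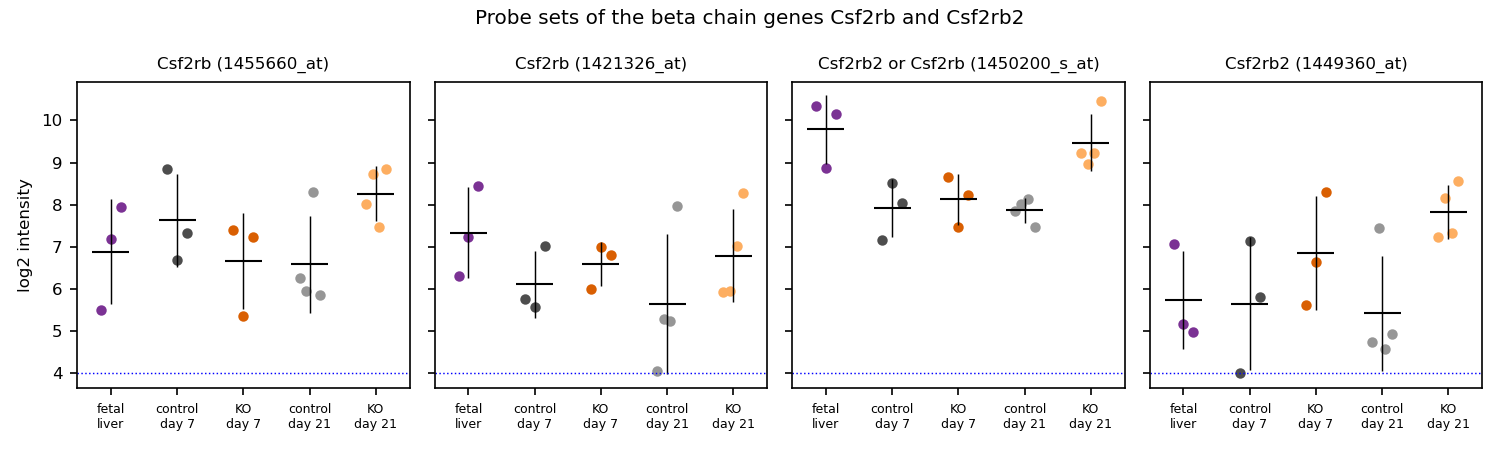
Log2 intensity on each array (points) with group mean and SD for 2 probe sets of Csf2rb, the probe set annotated to Csf2rb2 or Csf2rb, and that of Csf2rb2; the dotted line is the floor. On the shared probe set the 4 KO day 21 arrays, from 498 to 1410 in intensity, lie above the 4 control day 21 arrays, from 177 to 281.

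Csf2ra, the GM-CSF receptor chain, read 1239, 180 and 529 in control at day 7 and 295, 257 and 388 in KO on 1420703_at. At day 21 this probe set read 403, 238, 45.3 and 814 in control and 235, 111, 296 and 519 in KO. The KO differences of −0.67 (SE 1.18) and 0.04 (SE 1.02) were smaller than their errors. In fetal liver it read 441, 16 and 115, a difference of −1.89 (SE 1.00, adjusted p = 0.383). On 1420704_at control at day 21 was the highest group, at 109, 264, 129 and 187. KO at day 21 had 60.1, 50, 148 and 73.1 on it, a difference of −1.11 (SE 0.54, adjusted p = 0.559), and control at day 7 had 30.8, 168 and 38.9. KO at day 7 had 37.3, 103 and 114 and fetal liver 58.7, 83.2 and 79.2, within the range of control at day 7. The difference between these control groups, 1.47 (SE 0.58, unadjusted p = 0.0248), had an adjusted p of 0.593, and the other Csf2ra probe set had −1.01 (SE 1.10). The Csf2ra probe sets correlated at r = −0.18 over the 17 arrays.

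Il3ra, the IL-3 receptor chain, passed the test in no comparison. Its lowest, median and highest intensities over the 17 arrays were 33.2, 62.1 and 124, and control arrays read 105, 77.4 and 70.4 at day 7 and 60.0, 89.5, 33.2 and 62.1 at day 21. KO arrays read 124, 49.0 and 50.8 and then 49.4, 41.6, 50.2 and 71.0. Fetal arrays read 49.0, 90.5 and 85.6, and all groups overlapped. The KO difference over both days was −0.22 (SE 0.27), with a 95% confidence interval from −0.80 to 0.35, and the fetal difference was 0.06 (SE 0.34), from −0.68 to 0.81.

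Il6ra, which binds IL-6, had lower KO means of log2 intensity on both probe sets at both days, and none passed. On 1422270_a_at KO read 49.4, 102 and 127 at day 7 and 64.3, 87.6, 132 and 45.7 at day 21, against 107, 195 and 218 and 406, 129, 78.4 and 68.5 in control. All groups overlapped. The difference over both days was −0.85 (SE 0.44, unadjusted p = 0.0753, adjusted p = 0.524). On 1452416_at it was −0.19 (SE 0.51), with KO at 82.2, 426 and 115 and then 90.8, 179, 157 and 320, and control at 126, 200 and 285 and then 226, 432, 199 and 54.6. Fetal arrays read 272, 79.1 and 90.6 on the first and 149, 263 and 71.9 on the second probe set. Fetal differences were −0.23 (SE 0.57) and −0.40 (SE 0.66).

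Epor, the erythropoietin receptor, had higher means than control in fetal liver and in KO at day 21, without passing the test. Fetal arrays read 737, 521 and 1203 (1423344_at). Control arrays read 1079, 143 and 168 at day 7 and 313, 75.6, 826 and 200 at day 21, so 1 control array of each day reached the fetal range. That of day 21 was replicate 3, the array with the most probe sets at the floor and the lowest mean correlation with its group. KO arrays read 209, 329 and 308 at day 7 and 739, 223, 1280 and 628 at day 21. The differences were 1.51 (SE 0.75, adjusted p = 0.354) for fetal liver, −0.10 (SE 0.89) for KO at day 7 and 1.27 (SE 0.77, adjusted p = 0.663) for KO at day 21. Over 10 of 12 listed erythroid markers, the summed intensity was 2585 to 4872 in control and 5726 to 10738 in KO at day 7, without overlap. At day 21 it was 3758 to 7170 in control and 6486 to 12471 in KO, and in fetal liver 7974 to 13197. The control arrays that reached the fetal range of Epor had sums of 2585 (day 7 replicate 1) and 7170 (day 21 replicate 3). At day 7 Epor overlapped between KO and control, and 13% of all probe sets did not. The part of the erythroid markers in the Epor values was not tested.

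Over the 12 probe sets together limma called 0 at day 7, 0 at day 21 and 0 for the mean KO effect, where 0.0025%, 0.03% and 0.0275% of all probe sets were called. At an unadjusted p under 0.05 there were 0, 1 and 1 members, against 6.69%, 9.35% and 10.7% of all probe sets. No member separated KO from control completely at day 7, at day 21 or over both days together, which 13%, 5.16% and 0.725% of all probe sets did, and none separated the control groups, which 5.69% did. Member medians were −0.21 at day 7 and −0.07 at day 21, beside 0 and 0.01 over all probe sets. For control at day 21 against day 7, and for the difference between KO effects, limma also called 0 members, with 2 and 1 at an unadjusted p under 0.05; 0.05% and 0.0025% of all probe sets were called and 7.53% and 4.71% had such a p. The median SE of the KO difference at day 7 was 0.72 for members and 0.45 for all probe sets, without matching for brightness. Beside the 1000 probe sets nearest in mean intensity, members differed in precision. Their within-group SD ran from percentile 4.2 for Csf3r to 99.9 for Csf1r 1419872_at. The median width of the 95% interval at day 21 was 2.70 for members. Differences over 1 on the log2 scale went uncalled at day 21 for Epor and Csf2rb. The interval of Csf2rb 1455660_at, 0.14 to 3.21, excluded 0, and its limma adjusted p over all probe sets was 0.493.

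**Figure D4:**
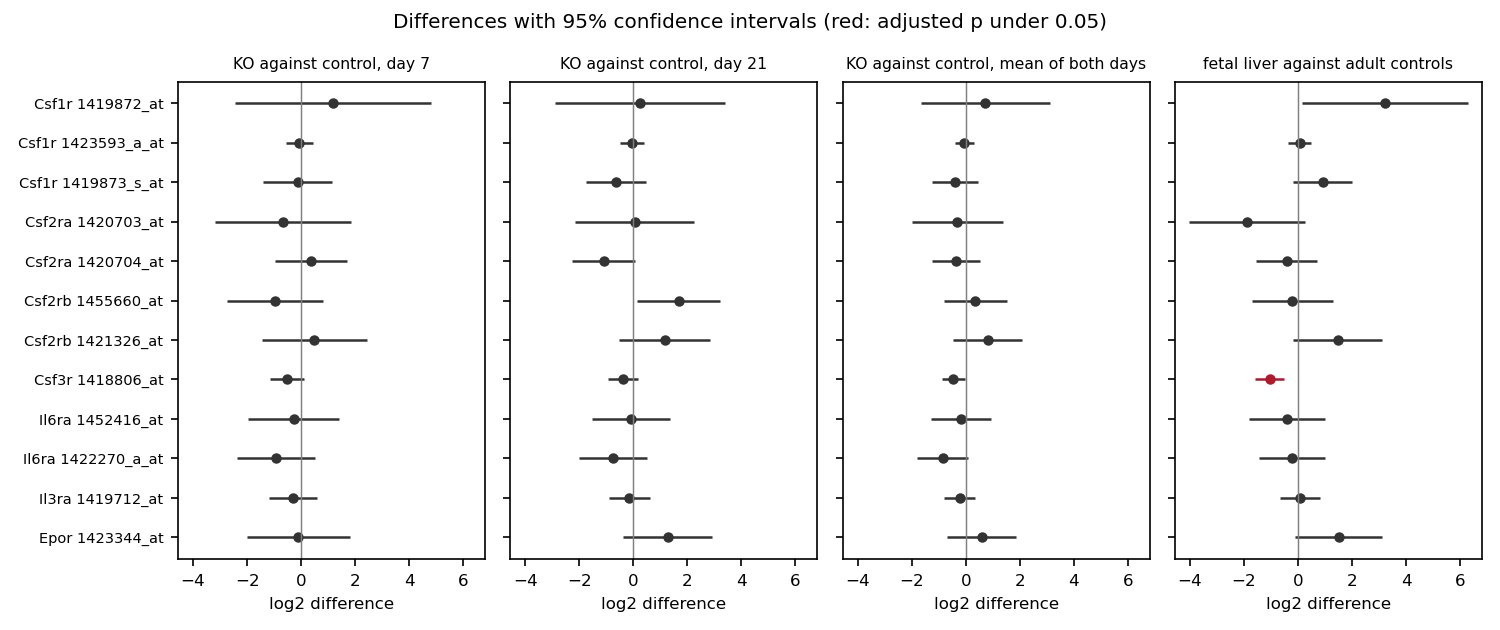
Log2 differences (points) with 95% confidence intervals (lines) for the 12 receptor probe sets in 4 comparisons; red marks an adjusted p under 0.05. Csf3r in fetal liver, at −1.04, is the 1 red value, and its intervals and those of Csf1r 1423593_a_at and Il3ra are narrow beside those of Csf1r 1419872_at and Csf2ra 1420703_at.

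Spread within groups differed among the receptors. The pooled within-group SD was 0.37 for Csf3r, where the median of the 1000 probe sets nearest in mean intensity was 0.70. It was 1.14 for Epor (0.68 for its neighbours), 1.52 for Csf2ra 1420703_at (0.80) and 2.18 for Csf1r 1419872_at (0.59). The 60 pairs of probe sets of different genes had a median r of −0.09 over the 17 arrays, from −0.49 to 0.44. For 6 pairs within a gene the median was 0.24. These correlations share arrays and groups and are given as a description.

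Genes whose values most resembled a receptor over the 17 arrays were sought among 19441 probe sets brighter than the median one. Each receptor was represented by its brightest probe set alone. These were 1419872_at for Csf1r, 1420703_at for Csf2ra, 1455660_at for Csf2rb and 1452416_at for Il6ra. As probe sets of 1 receptor often correlated weakly, the likeness is to that probe set and not to the gene. The values are the highest of a large search over few arrays, given as a description without a p-value. For Csf3r these were Fam107b, Eef2k and Chad (Pearson r = 0.84, 0.84 and 0.82), for Epor Slc29a1, Cit and Armc8 (0.82, 0.81 and 0.81) and for Il3ra Rab8b, Map2k1 and Msi2 (0.77, 0.77 and 0.75). Csf2ra was most like Ifitm1, Trip11 and Prkce (0.88, 0.88 and 0.86), Csf2rb like Entr1, Fancl and Bri3 (0.81, 0.78 and 0.77), Il6ra like Wrap73, Hcls1 and Sfswap (0.87, 0.80 and 0.78) and Csf1r like Ap5s1, Ttc7b and Ctr9 (0.82, 0.80 and 0.79).

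The rest of the pathway was taken from 5 lists, with the brightest probe set for each gene. In fetal liver 1 STAT target and 1 JAK-STAT gene were called, both lower. Socs3, which shuts off signalling from gp130 and the G-CSF receptor, had a log2 difference of −5.25 (SE 0.60, adjusted p = 0.000239). It ranged from 774 to 2242 on the control arrays and from 16 to 200 on the fetal arrays. Stat3, the main factor downstream of both receptors, fell by 1.22 (SE 0.27, adjusted p = 0.0243), with fetal arrays from 449 to 903 and controls from 1048 to 1629. The call of Stat3 was lost without fetal replicate 1 or 2 (adjusted p = 0.102 and 0.119), with only the arrays compared (0.0723), the replicate block (0.0672), the 3′ to 5′ ratio (0.0518) and array weights (0.0832), while that of Socs3 held in each setting and with each array left out. Each was the 1 member called of its list, of 18 JAK-STAT genes (8 higher, median −0.46) and of 10 STAT targets (2 higher, median −0.51). Over all genes the median was 0.02 and 52% were higher, and 3.07% of all probe sets were called.

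Among 11 transcription factors 4 were called in fetal liver, where 3.07% of all probe sets were called. Klf1, an erythroid factor, was higher by 4.12 (SE 0.72, adjusted p = 0.00676) and Irf8, a monocyte and dendritic cell factor, by 2.04 (SE 0.37, adjusted p = 0.00867). Gata2, a factor of stem cells and mast cells, fell by 1.59 (SE 0.19, adjusted p = 0.00031) and Cebpa by 2.08 (SE 0.47, adjusted p = 0.0284). Fetal and control arrays overlapped for Klf1 and not for Irf8, Gata2 and Cebpa. The call of Cebpa was lost without fetal replicate 1 or 2 (adjusted p = 0.0902 and 0.137), without control day 7 replicate 3 (0.0546) and with a fit of only the arrays compared (0.161). That last fit also ended the call of Klf1 (adjusted p = 0.0527). None of 19 other receptors (9 higher, median 0.00) or 8 ligands (4 higher, median −0.01) was called. The smallest p-values were those of Il10rb, a chain of the IL-10 receptor, at 1.07 (SE 0.30, adjusted p = 0.0736) and the LIF receptor Lifr at 1.77 (SE 0.59, adjusted p = 0.135). Among ligands they were those of Il11, which signals through gp130, at −0.54 (SE 0.14, adjusted p = 0.0569) and the stem cell factor gene Kitl at 0.30 (SE 0.20, adjusted p = 0.516).

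In the KO no gene of the 5 lists was called at either day, and Cebpa was the 1 called for the mean of both. Medians at day 21 were 0.17 for other receptors (12 of 19 higher), −0.13 for ligands (1 of 8), 0.27 for JAK-STAT genes (12 of 18), 0.18 for STAT targets (8 of 10) and 0.26 for transcription factors (7 of 11), beside 0.00 and 50.3% higher over all genes. At day 7 these medians were −0.05, 0.00, −0.09, −0.15 and −0.09. The smallest p-values at day 21 were those of Il10rb at 0.96 (SE 0.30, adjusted p = 0.33) and Csf2rb2, given above, among receptors and of Csf1 at −0.28 (SE 0.16, adjusted p = 0.634) and Il11 at −0.18 (SE 0.14, adjusted p = 0.74) among ligands. They were those of Stat2 at 1.18 (SE 0.60, adjusted p = 0.58) and Tyk2 at 1.06 (SE 0.57, adjusted p = 0.612) among JAK-STAT genes and of Socs1 at 0.42 (SE 0.14, adjusted p = 0.351) and Socs2 at −1.56 (SE 0.67, adjusted p = 0.499) among STAT targets. Klf1 followed Cebpa among the factors, at 1.89 (SE 0.74, adjusted p = 0.446). At day 7 they were those of Il10rb at 0.62 and the IL-7 receptor Il7r at 1.01, Il11 at −0.40 and Csf2 at −1.18, the signalling genes Cbl at −0.98 and Sos1 at −1.24, Id1 at −0.74 and Myc at 0.20, and Klf1 at 2.96 after Cebpa, with adjusted p from 0.498 to 0.977. Each KO comparison has the controls of its own day, and the fetal comparison shares control arrays with both.

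**Figure D5:**
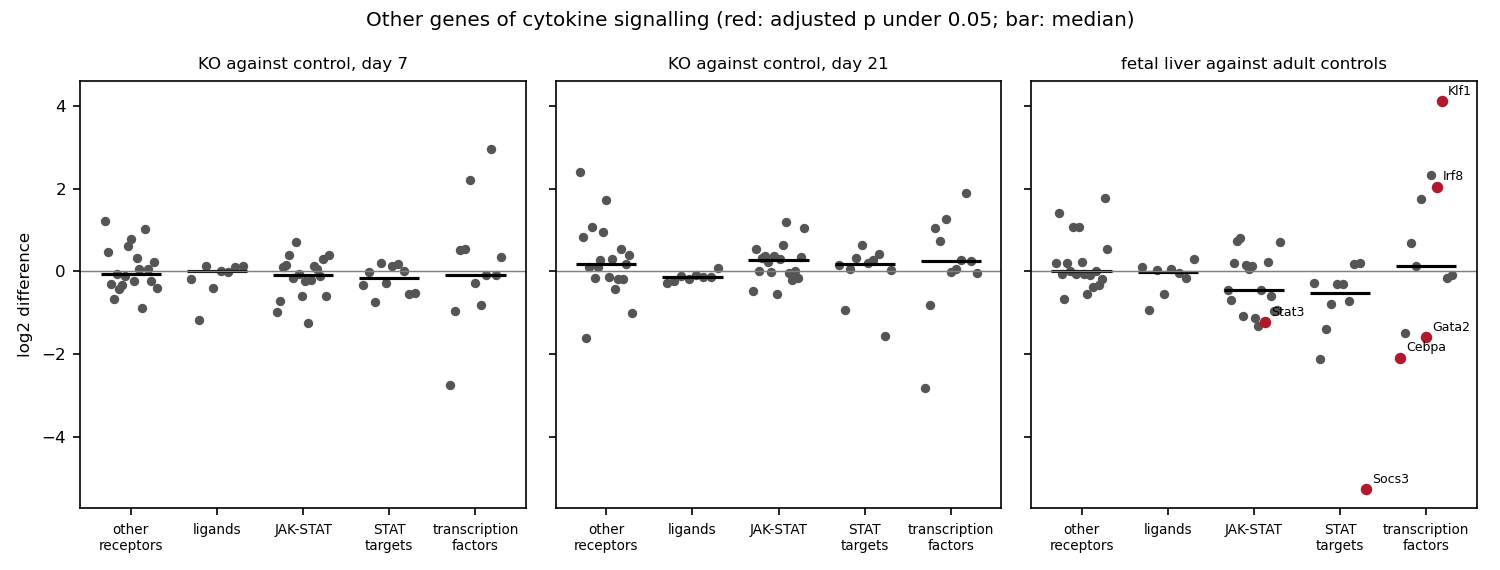
Log2 differences of the other genes of cytokine signalling in 3 comparisons, 1 point per gene, by list; bars are medians and red marks an adjusted p under 0.05. In the KO panels no point is red, while in fetal liver Socs3 at −5.25, Stat3 at −1.22 and 4 transcription factors are red.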

How the data were processed

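Intensities of 45101 probe sets on 17 arrays were used as deposited, on a linear scale with a floor of 16. RMA is named in the submitters' processing notes, without role or version; what the authors did after it, and any scaling between arrays, is stated nowhere in those sources. Groups came from sample titles. Genes came from the platform annotation (34958 probe sets with 1 gene, 932 with several, 9160 with none besides controls); all 7 receptor symbols matched RefSeq.

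Log2 of the intensity was taken without a pseudocount. 64 control probe sets and 5014 at the floor on every array were left out. limma 3.58.1 in R 4.3.3 (lmFit, eBayes; residual df 12, prior df 1.41) fitted 1 mean per group to all arrays, and p-values were Benjamini-Hochberg adjusted over 40023 probe sets, called under 0.05. The fit was tested on simulated data. Of 165 other listed genes 144 were measured. All receptor probe sets were named; listed genes were named where called (at most 4), otherwise the 2 with the smallest p; 3 most similar genes were named per receptor. Members and lists were chosen with earlier results of these data known. The number of arrays limits precision.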

Additional observations from a re-analysis of the deposited data

Results flagged for a closer look

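In 24 groups of 4 arrays, 12 probe sets at day 21 in control and KO, 2 held an array far from the other 3, where chance gives about 1 in 20 groups. Csf2rb (1455660_at) in control replicate 3 at day 21 read 314, against 57.9 to 76.2 on the other controls. Without it the KO difference was 2.24 in place of 1.68 (limma adjusted p = 0.349). This array also had the most probe sets at the floor, 25.2%, and the lowest mean correlation with its group, 0.81. Csf3r (1418806_at) in KO replicate 3 at day 21 read 209, against 318 to 334 on the other KO arrays; without it the KO difference was −0.23 in place of −0.39 (adjusted p = 0.898).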

How the results depend on the processing

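Of 906 values of receptor differences under other settings and 708 with 1 array left out, 24 and 71 uncalled ones changed sign, no called one did, 6 and 6 lost the call of Csf3r and 1 gained one. Receptor probe sets called numbered 0 in the 5 comparisons other than fetal liver in each setting run. In fetal liver the count of 1 became 0 with arrays centred on their medians, only the arrays compared, the 3′ to 5′ control ratio, array weights or a trended robust prior, and 0 to 1 with 1 array left out. With the replicate number as a block it stayed 1, but Csf2rb 1421326_at (1.78, adjusted p = 0.0189) took the place of Csf3r (−1.05, adjusted p = 0.0872). The numbers did not pair the samples (correlations of deviations from −0.01 to 0.08).

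Counts over all probe sets were 1, 12, 11, 1228, 20 and 1 for KO at day 7, KO at day 21, the mean KO effect, fetal liver, control day 21 against day 7 and the difference of KO effects. Leaving out 1 array gave 4 to 10, 0 to 57, 2 to 26, 851 to 1362, 9 to 45 and 1 to 5. KO at day 7 had 3 with values below 32 raised to 32, 2 without a filter, 0 with 1 probe set per gene or only the arrays compared, 6 with array weights and 3 with a trended prior. KO at day 21 had 3 with 1 probe set per gene, 4 with only the arrays compared, 2 with weights, and 0 with the block, either covariate or a trended prior. The mean effect had 3 with centring or quantiles, 28 with values below 32 raised, 27 with log2(value + 16), 23 without a filter, 0 with the block or the floor covariate, 2 with the 3′ to 5′ ratio, 61 with weights and 19 with a trended prior. Fetal liver had 613 with 1 probe set per gene and 492 with only the arrays compared. The control comparison had 5 and 13 in these, 11 with the block, 10 and 6 with the floor and ratio covariates and 12 with weights. The difference of effects had 2 with centring, no filter or weights, 3 with only the arrays compared, and 0 with 1 probe set per gene, the block or the ratio. The cause of these changes was not tested. The 4 floor values of Csf1r 1419872_at and the 1 of Csf2ra 1420703_at are upper bounds.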
